A study of Homo sapiens with 9 samples.

Results

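The 9 claudins described here are CLDN1, CLDN2, CLDN3, CLDN4, CLDN6, CLDN7, CLDN12, CLDN15 and CLDN23. They were taken by symbol from a table of read counts over 60591 gene symbols, which lists 24 CLDN symbols in all. All 9 were among the 15944 symbols kept by a filter on low counts. mRNA was sequenced from undifferentiated Caco-2 (uCaco-2) cells, that is, proliferating cells of a human colon adenocarcinoma line before it forms a polarised monolayer. The cells received fresh medium (control), 300 μM CoCl2 or 5 μM of an oxyquinoline derivative (OD) for 24 h. All 3 conditions, the control included, held 0.5% DMSO by the labels, and each had 3 biological replicates from this 1 cell line. The labelled OD stock of 10 mM accounts for only 0.05% DMSO at this dose, and whether the vehicle was matched was not tested. CoCl2 and OD served as chemical activators of the hypoxia-inducible factor (HIF) pathway.

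Claudins are membrane proteins of the tight junction, the belt that closes the space between neighbouring epithelial cells. Strands of claudins decide which ions and how much water pass between cells. Pore-forming members (CLDN2, a channel for small cations and water, and CLDN15, a cation channel of the intestine) open selective paths. Sealing members (CLDN1, CLDN3, CLDN4 and CLDN6) narrow them. The part played by CLDN7, CLDN12 and CLDN23 depends on the tissue or is not settled, and they are treated as a group of their own. mRNA levels say nothing on the amount or place of the proteins, which were not analysed here.

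CLDN3 and CLDN4 lie close together on chromosome 7 of GRCh38 (GENCODE release 44), CLDN3 at chr7:73768997-73770270 on the minus strand and CLDN4 at chr7:73799542-73832690 on the plus strand. CLDN15 lies at chr7:101232092-101238820 on the minus strand and CLDN12 at chr7:90383721-90513402 on the plus strand. CLDN2 lies at chrX:106900164-106930861 on the plus strand, and CLDN1 at chr3:190305707-190322446, CLDN6 at chr16:3014712-3020071 and CLDN7 at chr17:7259903-7263983 on the minus strand. The 250 bases before the RefSeq start site (GRCh38.p14) are shown for 4 of them, chosen because CLDN4 and CLDN15 rose with CoCl2, CLDN2 fell with both agents and CLDN3 rose with OD. Capitals mark the motif letters named after the sequences.
CLDN4 (chr7:73830746-73830995, plus strand): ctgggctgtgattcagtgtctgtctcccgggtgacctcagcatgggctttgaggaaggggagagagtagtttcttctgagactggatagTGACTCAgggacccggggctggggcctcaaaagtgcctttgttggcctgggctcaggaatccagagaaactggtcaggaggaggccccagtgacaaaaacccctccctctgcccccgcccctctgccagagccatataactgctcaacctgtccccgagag
CLDN15 (chr7:101237803-101238052, minus strand): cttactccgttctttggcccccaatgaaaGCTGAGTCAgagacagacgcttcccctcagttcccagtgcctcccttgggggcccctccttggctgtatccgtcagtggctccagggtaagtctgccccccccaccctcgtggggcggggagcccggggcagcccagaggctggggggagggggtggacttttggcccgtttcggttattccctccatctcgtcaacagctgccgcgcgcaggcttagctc
CLDN3 (chr7:73770271-73770520, minus strand): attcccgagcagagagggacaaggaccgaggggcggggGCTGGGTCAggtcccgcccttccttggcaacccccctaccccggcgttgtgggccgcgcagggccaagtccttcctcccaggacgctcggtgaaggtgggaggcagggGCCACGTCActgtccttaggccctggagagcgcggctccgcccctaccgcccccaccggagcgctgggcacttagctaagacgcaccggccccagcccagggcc
CLDN2 (chrX:106899914-106900163, plus strand): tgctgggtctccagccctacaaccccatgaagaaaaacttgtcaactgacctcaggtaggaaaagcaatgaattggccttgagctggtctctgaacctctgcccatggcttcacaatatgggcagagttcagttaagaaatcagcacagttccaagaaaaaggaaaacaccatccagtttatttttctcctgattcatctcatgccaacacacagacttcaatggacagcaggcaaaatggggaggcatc

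The motifs were chosen after these windows had been read, and they were searched on both strands of windows from 250 bases before to 50 bases after the start. The search covered RefSeq windows of 8 of the 9 claudins, 10 windows in all, and CLDN23 was left out of it. The AP-1 letters TGAGTCA or TGACTCA stand in 2 of the 10, those of CLDN4 and CLDN15, and in 4.95% of all 35116 windows. In CLDN4 they begin 161 bases before the start site. In CLDN15 they begin 219 bases before it and lie inside an antioxidant-element match (TGACNNNGC), a motif found in 13.3% of all windows. The CLDN3 window holds that same motif at 212 and 104 bases before the start. The second of these overlaps a match to the core letters of the hypoxia response element (ACGTG or GCGTG), which occur in 48.4% of all windows. That core stands in 6 of the 10 claudin windows, namely those of CLDN1, CLDN3 and CLDN6, both of CLDN7 and the second of CLDN2, and not in those of CLDN4, CLDN15 or CLDN12 or in the CLDN2 window shown. The antioxidant-element letters stand in 5 of the 10. The letters CAGGTG, read by Snail factors, occur in 20.6% of all windows and in 3 of the 10, those of CLDN3 and CLDN6 and 1 of CLDN7, which holds them 5 times. The heat-shock letters GAANNTTC (6.77% of all windows) occur in none of the 10. A match is a description of letters and not of binding.

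Total counts ranged from 15998136 to 24209427 per library. Levels are CPM, that is, counts brought to a library total of 1000000, after scaling by TMM, a factor per library that assumes most genes do not change. The factors were 1.108 to 1.1164 in control, 0.7698 to 0.7946 under CoCl2 and 1.1376 to 1.1498 under OD, so CoCl2 levels depend most on the scaling. Scaled by library size alone, the middle value of all genes' log2 fold changes against control moved from -0.049 to -0.55 with CoCl2 and from -0.010 to 0.029 with OD. Markers of intestinal epithelium were detected for 10 of 10 genes in each condition, with summed levels of 11500 to 12030 CPM in control, 13950 to 14930 CPM with CoCl2 and 11030 to 11600 CPM with OD. Of these, VIL1 (villin) and KRT20 fell with CoCl2, by 2.45 and 1.44 on the log2 scale. The other 8 had positive log2 fold changes with CoCl2, all under 1. Scaled by library size only, 1 of the 10 was positive. In control the fibroblast markers COL1A2 and DCN and the immune marker PTPRC had no counts. The endothelial list reached at most 3.50 CPM and the immune list at most 5.91 CPM in any library. The fibroblast list summed to 86.0 to 118 CPM, most of it PDGFRA. The part of these markers in the claudin results was not tested. In bulk RNA, fewer cells of a type and less RNA per cell cannot be told apart. Of 5 HIF targets, BNIP3, NDRG1 and ANKRD37 rose in both treatments (log2 fold changes of 3.77, 3.70 and 2.51 with CoCl2 and 3.98, 3.22 and 3.03 with OD). EGLN3 rose with CoCl2 (1.27) and had a value of 0.35 with OD, and CA9, with at most 16 counts, was not tested.

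In control cells CLDN4 was the most abundant of the 9 claudins, CLDN7 the next and CLDN1 the third. Divided by the length of the canonical transcript, their levels were 109 ± 3.47, 58.7 ± 1.63 and 17.4 ± 1.27 CPM per kb (SD, n = 3), and the libraries of these neighbours did not overlap. CLDN12 followed at 7.85 ± 0.685 CPM per kb. CLDN15 (4.95 ± 0.862 CPM per kb), CLDN2 (3.96 ± 0.197), CLDN23 (3.50 ± 0.437) and CLDN3 (3.48 ± 0.390) formed a group in which each neighbour overlapped the next. CLDN6, a claudin of embryonic epithelia, was near the limit of detection at 0.388 ± 0.149 CPM per kb. With the length of all annotated exons instead, CLDN4 and CLDN7 kept the top ranks but came closer, at 39.5 and 36.3 CPM per kb, and CLDN15 dropped to 2.09 CPM per kb, under CLDN2 (3.44) without overlap. CLDN12 (4.14 CPM per kb) then overlapped CLDN23.

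The order changed with treatment. With CoCl2, CLDN4 stood at 793 ± 16.5 CPM per kb, far above CLDN7 (23.8 ± 1.85) and CLDN15 (22.9 ± 0.664), whose libraries overlapped. CLDN12 (16.03 ± 1.34 CPM per kb) then stood above CLDN1 (8.28 ± 1.02), and CLDN2 (0.574 ± 0.0949) had come down to the level of CLDN6 (0.512 ± 0.0514). With OD the first 3 ranks were those of control, at 220 ± 14.7, 64.6 ± 2.49 and 15.7 ± 0.616 CPM per kb. CLDN3 (8.22 ± 0.382 CPM per kb) had moved up beside CLDN12 (8.67 ± 0.417), with overlapping libraries, and CLDN2 (1.57 ± 0.221) was next to last. Part of this order depended on the length used. With the length of all exons, the libraries of CLDN7 and CLDN15 (14.7 and 9.70 CPM per kb) and of CLDN2 and CLDN6 (0.498 and 0.403) no longer overlapped under CoCl2, those of CLDN12 and CLDN1 (8.44 and 7.86) did, and under OD CLDN3 (8.22) stood above CLDN12 (4.57).

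**Figure D1:**
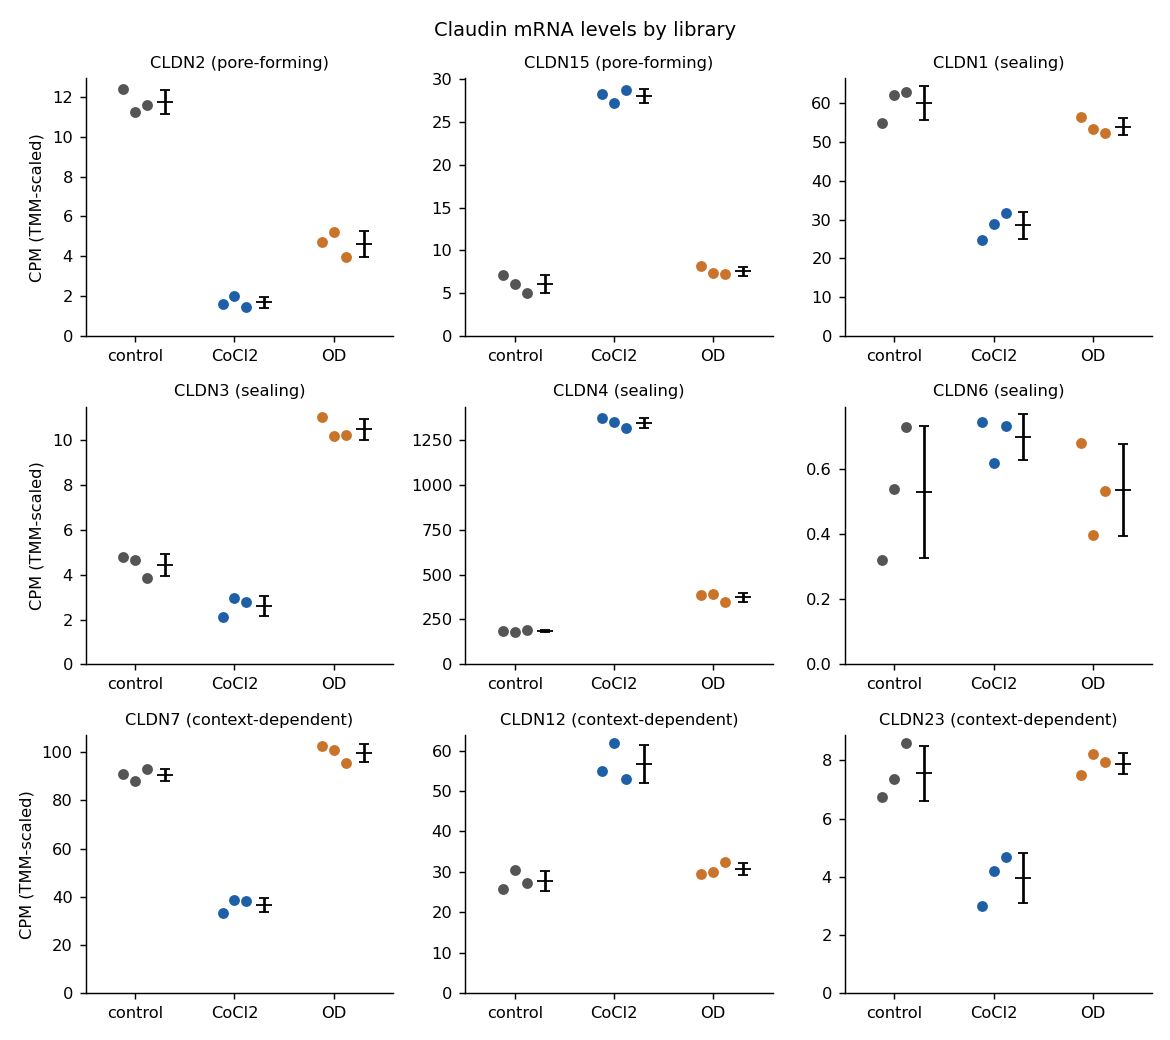
Level of each claudin in each library (y axis, TMM-scaled CPM, starting at 0) for control, CoCl2 and OD (x axis); points are libraries and the bar beside them is the mean ± SD (n = 3). CLDN4 reaches 1314 to 1369 CPM with CoCl2 against 180 to 192 CPM in control, while CLDN2 falls from 11.2 to 12.4 CPM to 1.47 to 2.01 CPM.

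The fold changes below come from edgeR's quasi-likelihood test over all 15944 genes, with Benjamini-Hochberg adjustment. A gene is called higher or lower when its adjusted p is under 0.05 and its log2 fold change exceeds 1 in size. CoCl2 against control asks how a metal ion that activates HIF moved the claudins. It moved 6 of the 9 past both thresholds, 3 up (CLDN4, CLDN15 and CLDN12) and 3 down (CLDN2, CLDN7 and CLDN1), at a background of 43.2% of all genes (19.9% higher and 23.4% lower). On the adjusted p alone 8 of 9 passed, against 83.2% of all genes, and the libraries of 8 did not overlap, against 83.4%. The 9 had a median log2 fold change of -0.77, against -0.049 over all genes. Scaled by library size only, the split was 2 higher and 5 lower, and that of all genes went from 3167 higher and 3724 lower to 1833 and 5839.

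OD against control asks the same of an oxyquinoline. It moved 3 of the 9, with CLDN3 and CLDN4 higher and CLDN2 lower, at a background of 13.3% of all genes (9.09% higher and 4.16% lower). On the adjusted p alone 6 passed, where 65.6% of all genes did, and the libraries of 5 did not overlap, where 68.0% of all genes did not. The median of the 9 was 0.14. CoCl2 and OD were compared with the same control libraries. Set against each other at the doses used, CoCl2 and OD differed in 5 claudins, with CLDN4 and CLDN15 higher and CLDN2, CLDN3 and CLDN7 lower with CoCl2, at a background of 41.3% of all genes (17.5% higher and 23.8% lower). In that comparison 8 passed on the adjusted p alone, against 83.5% of all genes, and 8 did not overlap, against 83.8%. By upper-quartile factors or by library size only, this split was 2 higher and 5 lower, and by library size only that of all genes went from 2790 higher and 3790 lower to 1351 and 6026. The agents differ in dose by far, so the difference is between these treatments and not between the compounds at matched dose.

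**Figure D2:**
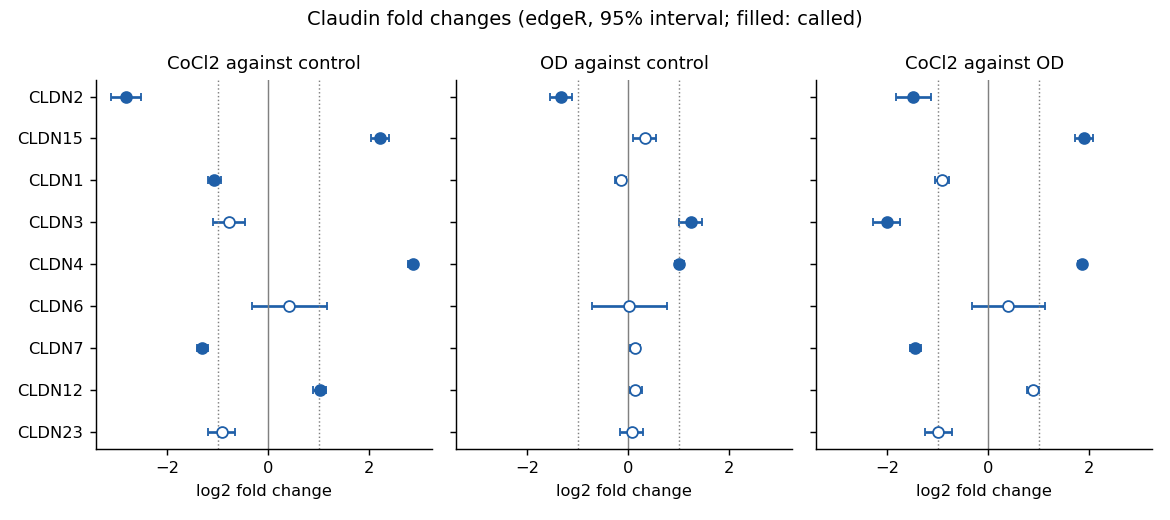
The 9 claudins (y axis, 1 row each) and their log2 fold change (x axis), 1 panel for each of the 3 comparisons. Bars are 95% intervals computed from the edgeR test. Filled points are called, open points are not, and dotted lines mark a log2 fold change of 1 in size. CLDN2 lies left of the dotted line in all 3 panels, and CLDN4 lies at 2.86, 1.01 and 1.85.

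Of the pore-forming claudins, CLDN2 fell in both treatments and CLDN15 rose with CoCl2. CLDN2 had 230, 229 and 207 counts in the control libraries, 26, 26 and 28 with CoCl2 and 104, 118 and 74 with OD. The groups did not overlap on the CPM scale. In CPM the means were 11.7 ± 0.584 in control, 1.70 ± 0.281 with CoCl2 and 4.63 ± 0.653 with OD (SD, n = 3). The log2 fold change was -2.81 (SE 0.149, edgeR adjusted p = 2.41e-26) with CoCl2 and -1.33 (SE 0.112, adjusted p = 1.48e-16) with OD. CoCl2 lay below OD by a further log2 fold change of -1.48 (SE 0.176, adjusted p = 1.86e-11).

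CLDN15 had 132, 124 and 89 counts in control, 455, 351 and 548 with CoCl2 and 180, 166 and 135 with OD. The CoCl2 libraries stood far above the rest, and the OD libraries just above control without overlap in CPM. The means were 6.06 ± 1.05, 28.1 ± 0.813 and 7.58 ± 0.525 CPM. With CoCl2 the log2 fold change was 2.21 (SE 0.0944, edgeR adjusted p = 3.32e-31), and with OD it was 0.32 (SE 0.114, adjusted p = 0.0107), under the size needed for a call. Over the alternative fits the OD value ranged from 0.21 without control replicate 3 to 0.46 without control replicate 1. Its adjusted p did not stay under 0.05 in all of them. The pore-forming members thus did not share a direction under CoCl2: within a library, the ratio of CLDN15 to CLDN2 per length was 1.04 to 1.39 in control, 32.7 to 47.4 with CoCl2 and 3.40 to 4.41 with OD. A ratio within a library does not depend on the scaling between libraries, but its level depends on the lengths: with all exons it was 0.507 to 0.677, 15.9 to 23.1 and 1.66 to 2.15. Its change between conditions does not.

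Of the 4 sealing claudins, 1 rose and 1 fell with CoCl2, and 2 rose with OD. CLDN4, which lowers the passage of cations, had 3418, 3680 and 3421 counts in control, 22001, 17447 and 25052 with CoCl2 and 8490, 8779 and 6473 with OD. The 3 conditions did not overlap in CPM, with means of 185 ± 5.89, 1344 ± 28.0 and 373 ± 24.9 CPM (SD, n = 3). CLDN4 rose 7.25-fold with CoCl2 (log2 fold change 2.86, SE 0.0443, edgeR adjusted p = 3.58e-55). With OD it rose 2.02-fold (log2 fold change 1.01, SE 0.0430, adjusted p = 2.42e-30), at the edge of the call. Leaving out control replicate 2, OD replicate 1 or OD replicate 2 brought that value to 0.99, 0.99 or 0.98 and ended the call.

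CLDN1, a main barrier claudin, had 1023, 1269 and 1122 counts in control, 399, 374 and 607 with CoCl2 and 1241, 1200 and 982 with OD. The CoCl2 libraries lay below all others in CPM, and the OD and control libraries overlapped. The means were 60.1 ± 4.37, 28.5 ± 3.52 and 54.0 ± 2.12 CPM. CLDN1 fell with CoCl2 (log2 fold change -1.07, SE 0.0665, edgeR adjusted p = 7.41e-22). Without CoCl2 replicate 1 the value was -0.97 and the call ended. With OD the log2 fold change was -0.15 (adjusted p = 0.0201), not a call.

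CLDN3 is a sealing claudin of the gut, and of the 9 it had the largest log2 fold change in size between the agents. Its counts were 89, 95 and 69 in control, 34, 38 and 53 with CoCl2 and 243, 229 and 192 with OD. In CPM the OD libraries lay above control and the CoCl2 libraries below it, with no overlap, at means of 10.5 ± 0.487, 4.44 ± 0.496 and 2.61 ± 0.438. CLDN3 rose with OD (log2 fold change 1.23, SE 0.115, edgeR adjusted p = 9.74e-15). With CoCl2 its log2 fold change of -0.77 (SE 0.162, adjusted p = 1.85e-05) was too small for a call, though with library size alone it was -1.28 and called. CoCl2 against OD gave -2.01 (SE 0.135, adjusted p = 2.84e-21).

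CLDN6 had 6 to 15 counts in each of the 9 libraries, and the conditions overlapped. Its log2 fold changes were 0.42 (95% interval -0.32 to 1.15, edgeR adjusted p = 0.302) with CoCl2 and 0.023 (95% interval -0.71 to 0.76, adjusted p = 0.960) with OD. A difference was not detectable at this depth. Part of its exons, 2.30%, lies antisense to TNFRSF12A, which had 931 to 1530 counts.

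The sealing members CLDN4 and CLDN3 were also set against each other within a library. Per length, CLDN4 was 28.9 to 37.3 times CLDN3 in control, 345 to 486 times with CoCl2 and 25.3 to 28.8 times with OD. The change in the log2 ratio was 3.63 with CoCl2 and -0.24 with OD. The ratio of the sealing CLDN4 to the pore-forming CLDN2 went from 26.0 to 28.9 in control to 1172 to 1563 with CoCl2 and 130 to 153 with OD. The change in log2 ratio was 5.66 and 2.36. With all exons CLDN4 to CLDN3 was 10.4 to 13.4 in control, 124.5 to 175.4 with CoCl2 and 9.14 to 10.4 with OD. CLDN4 to CLDN2 was then 10.8 to 12, 487 to 650 and 54.0 to 63.5. The changes in log2 ratio do not depend on the length.

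**Figure D3:**
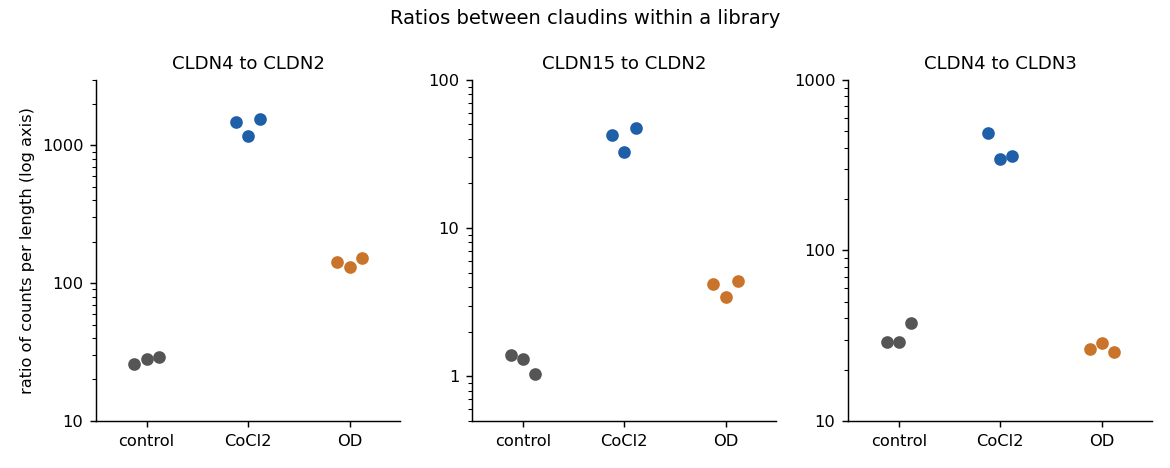
Ratio of the counts of 2 claudins per transcript length within each library (y axis, log scale) for control, CoCl2 and OD (x axis); each point is 1 library. CLDN4 to CLDN2 and CLDN15 to CLDN2 are highest with CoCl2 and intermediate with OD, whereas CLDN4 to CLDN3 in OD (25.3 to 28.8) lies just below the control range (28.9 to 37.3).

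In the group without a settled role, CLDN7 and CLDN12 moved in opposite directions with CoCl2. CLDN7, which is abundant in colon and binds the adhesion molecule EPCAM, had 1688, 1794 and 1657 counts in control, 536, 497 and 726 with CoCl2 and 2262, 2274 and 1791 with OD. The CoCl2 libraries stood apart below the others. The means were 90.6 ± 2.51, 36.6 ± 2.85 and 99.7 ± 3.84 CPM. CLDN7 fell with CoCl2 (log2 fold change -1.31, SE 0.0563, edgeR adjusted p = 5.05e-31), and its value with OD was 0.14 (SE 0.0493, adjusted p = 0.0108). Of 75-base windows of its transcript, 13.3% also occur in another annotated gene, and reads there may have been assigned to either.

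CLDN12 had 477, 620 and 484 counts in control, 882, 801 and 1012 with CoCl2 and 651, 677 and 607 with OD. The CoCl2 libraries stood above the others, which overlapped. The means were 27.7 ± 2.42, 56.6 ± 4.72 and 30.6 ± 1.47 CPM. CLDN12 rose with CoCl2 (log2 fold change 1.02, SE 0.0650, edgeR adjusted p = 1.99e-22) just past the limit, and it was 0.52, not a call, with library size alone. Leaving out control replicate 1, control replicate 3 or CoCl2 replicate 2 brought it to 0.97, 0.998 or 0.96 and ended the call. With OD it was 0.14 (adjusted p = 0.0659). Over all its annotated exons, other genes, CDK14 and GTPBP10 among them, share 17.6% on the same strand, against 10.8% for CLDN7. Of 75-base windows of its canonical transcript, 3.04% also occur in another annotated gene, which is not CDK14 or GTPBP10.

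CLDN23, found in intestinal epithelium, had 125, 150 and 153 counts in control, 48, 54 and 89 with CoCl2 and 165, 185 and 149 with OD. The CoCl2 libraries lay lowest and the other conditions overlapped. The means were 7.55 ± 0.945, 3.94 ± 0.865 and 7.88 ± 0.362 CPM. The log2 fold change with CoCl2, -0.92 (SE 0.138, edgeR adjusted p = 1.43e-08), was short of a call. It was -1.43 with library size alone and -1.09 without CoCl2 replicate 3, both past the threshold. With OD it was 0.064 (adjusted p = 0.636). CoCl2 against OD gave -0.99 (SE 0.135, edgeR adjusted p = 1.22e-09), just short of a call. It was called with library size alone (-1.53), upper-quartile factors (-1.12), no filter (-1.05) and at least 10 counts (-1.04). DESeq2 on the 6 libraries (-1.01) also called it, as did leaving out control replicate 1, CoCl2 replicate 2 or 3, or OD replicate 1.

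CLDN4 was the largest single part of the claudin counts in every condition, at 45.5 to 46.8% in control, 88.9 to 90.1% with CoCl2 and 61.3 to 63.6% with OD. Summed over the 24 symbols, claudins reached 393 to 410 CPM in control, 1477 to 1519 CPM with CoCl2 and 562 to 614 CPM with OD. Per length, CLDN4 was 51.0 to 52.1% of the claudin total in control, 90.8 to 91.7% with CoCl2 and 65.2 to 67.2% with OD. CLDN7 was 27.3 to 28.0%, 2.46 to 2.89% and 19.1 to 19.8%. With the length of all exons, the CLDN4 share was 34.8 to 35.9% in control, 49.2 to 51.5% with OD and 85.3 to 87.1% with CoCl2. Without CLDN4 the claudin total was 209 to 218 CPM in control, 151 to 169 CPM with CoCl2 and 217 to 228 CPM with OD, so the CoCl2 libraries lay below control once CLDN4 was set aside. They also did so when divided by the total counts of the library, with 116 to 134 per 1000000 counts against 231 to 243.

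**Figure D4:**
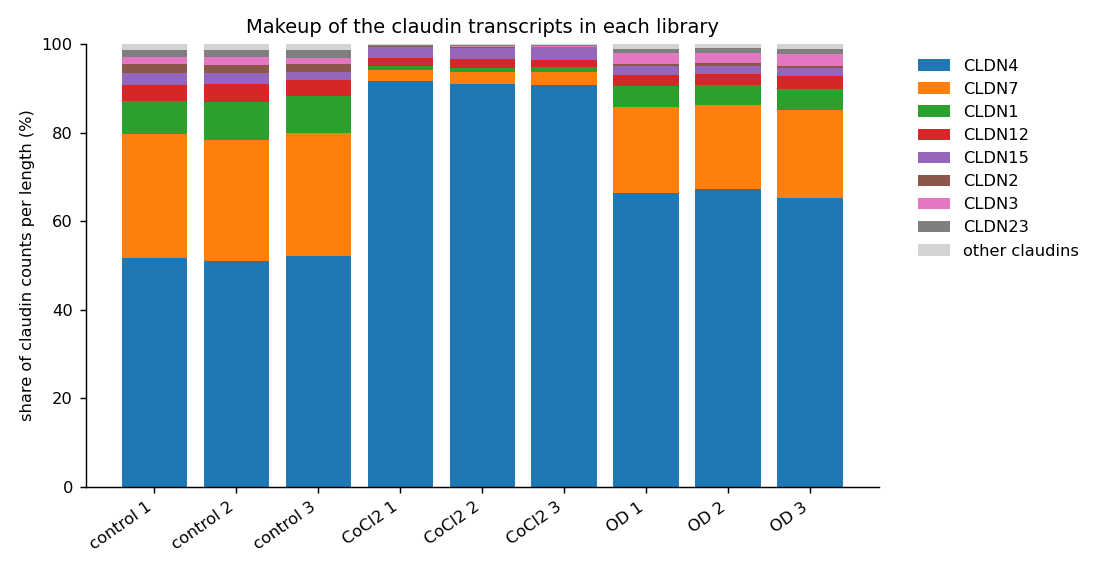
Makeup of the claudin transcripts in each library (x axis), as the share of claudin counts divided by transcript length (y axis, %, bars starting at 0); colours are claudins and the light grey part holds the remaining CLDN symbols. The CLDN4 part is 51.0 to 52.1% of the bar in control, 65.2 to 67.2% with OD and 90.8 to 91.7% with CoCl2.

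The other 15 CLDN symbols gave few counts. Of these, 13 stayed under the filter with at most 7 counts in any library, and 5 (CLDN8, CLDN10, CLDN17, CLDN22 and CLDN25) had no count in any library. CLDN20 and CLDN19 passed the filter, and CLDN20 was not called with either agent (log2 fold changes of 0.45 with CoCl2 and -0.34 with OD). CLDN19, known from kidney and retina, had 87, 77 and 79 counts in control, 5, 7 and 12 with CoCl2 and 134, 152 and 118 with OD. It fell with CoCl2 (log2 fold change -3.08, SE 0.243, edgeR adjusted p = 2.78e-18) and had a value of 0.57 with OD. CLDND1, a gene with a claudin domain, rose with CoCl2 (log2 fold change 2.07, edgeR adjusted p = 6.89e-42) and had a value of 0.37 with OD.

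The rest of the tight junction was read from a list of 26 genes, 22 of them tested. With CoCl2, 4 rose, among them PARD6B, OCLN and PRKCI, and 2 fell (AMOTL1 and PARD6A), that is 6 of 22, where 43.2% of all genes were called. OCLN (occludin, a junction membrane protein) went from 58.9 to 62.7 CPM in control to 144 to 146 CPM with CoCl2 (log2 fold change 1.26, SE 0.0478) and 85.7 to 88.6 CPM with OD (0.52, SE 0.0484). PARD6B, of the PAR polarity complex, went from 30.0 to 34.4 CPM to 160 to 172 CPM with CoCl2, a log2 fold change of 2.39. TJP1 (ZO-1, a scaffold under the junction) had a value of 0.85 with CoCl2 and 0.15 with OD, not called in either. The list median was 0.48 against -0.049 for all genes. With library size alone it was -0.022 against -0.55 for all genes. The calls were then 1 higher and 3 lower, with OCLN at 0.75, and those of all genes were 1833 higher and 5839 lower.

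With OD, none of the 22 was called by edgeR or by DESeq2, where 13.3% of all genes were called by edgeR. On the adjusted p alone 17 passed, against 65.6% of all genes, and 18 did at an unadjusted p under 0.05 (15 higher and 3 lower), against 68.1% of all genes. The list median was 0.26. Among 19 tested genes of a list of 23 claudin regulators, 7 rose and 4 fell with CoCl2, and 4 rose with OD, at the same backgrounds of 43.2% and 13.3% of all genes. The transcription factor SNAI1 (Snail, known to repress junction genes) went from 7.60 to 10.4 CPM in control to 116 to 133 CPM with CoCl2 and 19.1 to 20.3 CPM with OD, log2 fold changes of 3.86 and 1.22. KLF4 (2.71 and 2.28) and ELF3 (1.93 and 1.13) rose in both treatments. KLF5 (2.11), GRHL1 (1.72) and SPINT2 (1.12) rose with CoCl2, and with OD they had values of 0.79, 0.82 and 0.43.

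The regulators that fell with CoCl2 included VDR (the vitamin D receptor), GATA4 and WNK4. VDR went from 21.6 to 23.3 CPM to 4.82 to 6.28 CPM, a log2 fold change of -2.00, and was 27.5 to 29.7 CPM with OD. GATA4 was low throughout, with 18 to 23 counts in control and 0 to 3 with CoCl2. WNK4 had a log2 fold change of -1.01. The intestinal factors HNF4A (0.41 with CoCl2 and 0.46 with OD) and CDX2 (0.18 and 0.30), and EPCAM (0.36 and 0.064), were not called. Under library size alone the CoCl2 values of HNF4A, CDX2 and EPCAM turned to -0.092, -0.33 and -0.14, and the list had 5 higher and 4 lower. Whether these regulators act on the claudins here was not tested.

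**Figure D5:**
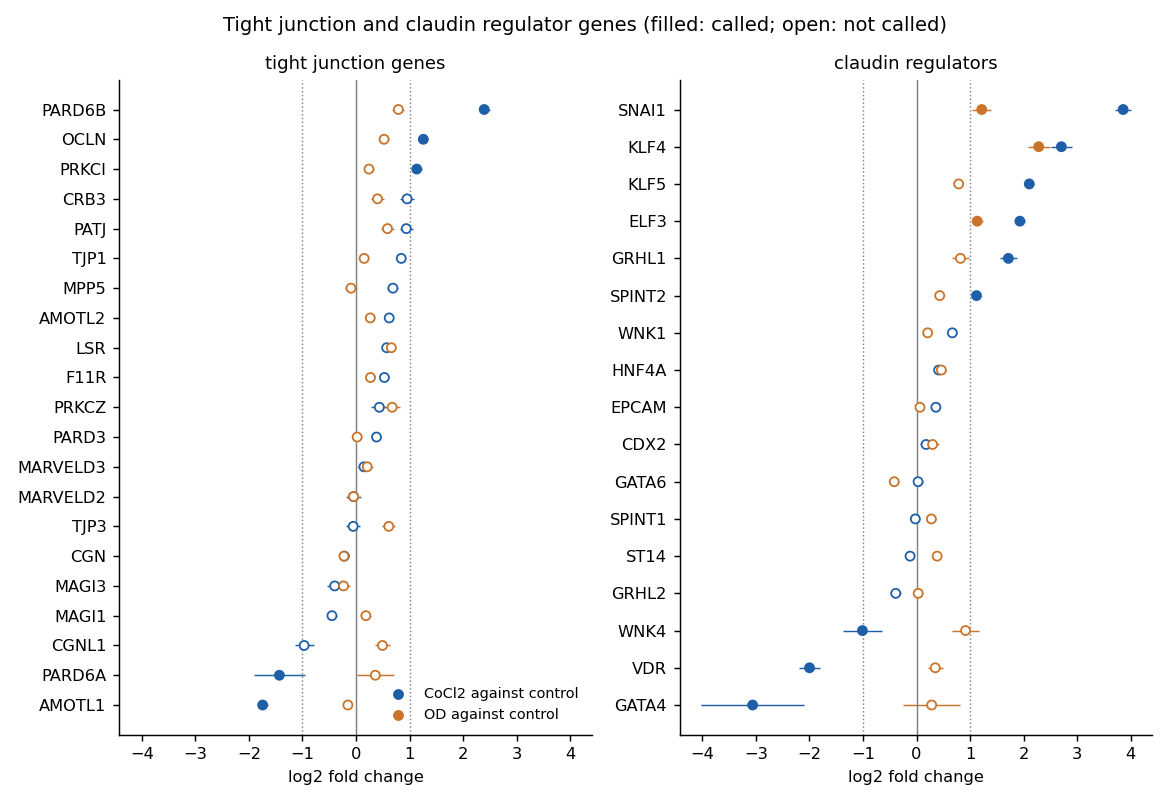
Log2 fold change against control (x axis, with 95% intervals) of tested tight junction genes (left) and claudin regulators (right), without the genes not reported here, sorted by the CoCl2 value; blue is CoCl2, orange is OD, filled points are called, and dotted lines mark 1 in size. SNAI1 (3.86) and PARD6B (2.39) lead with CoCl2, and no tight junction gene shown is filled for OD.

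Among the 13428 tested genes that averaged 1 CPM or more, the profiles most like those of 3 claudins over the 9 libraries were listed by Pearson correlation of log2 CPM, as a description. For CLDN4 they were HBEGF, TRIB1 and SNX9 (r = 0.999 each). HBEGF, a growth factor, had means of 13.3, 93.0 and 27.2 CPM in control, CoCl2 and OD. For CLDN2 they were NPM3 (0.996), ATP5MC3 (0.996) and NAXE (0.994), and for CLDN15 SEC13, GCNA and EIF3L (0.998 each). The 9 points share 3 conditions, which sets most of each correlation.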

How the data were processed

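The authors prepared poly(A) stranded libraries with single-end reads, checked them with FastQC 0.11.9, trimmed with cutadapt 2.10 and mapped to GRCh38.p13 with STAR 2.7.5b, per the labels and the methods. They deposited raw counts per gene symbol without normalization. The counting tool, its strand setting and its treatment of reads that fit several genes are not given in the sources used here. Columns were matched to samples by name, and 0 columns of samples were left unused. Counts of replicates differed beyond sampling noise in every pair (chi-square per degree of freedom 1.823 to 3.32), so none was merged.

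Here the counts were filtered with filterByExpr of edgeR 4.0.16 (R 4.3.3), which left 15944 symbols, and scaled by TMM. All 9 libraries entered 1 robust quasi-likelihood model with a mean for each condition. It was used to test the 3 comparisons, and p-values were adjusted over all tested genes (Benjamini-Hochberg). Calls required both an adjusted p below 0.05 and a fold change of over 2 in either direction. An exact permutation test on 3 against 3 libraries cannot give a two-sided p below 0.1. CPM per kb used the canonical transcript of GENCODE release 44 (88.7% of tested symbols matched), and the length of all exons was an alternative chosen after seeing the data. Likeness used log2(CPM + 0.5).

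The members, the groups by role and the gene lists were chosen with earlier results of these data known. The genes named are all members, the other CLDN symbols, CLDND1, the called genes of both lists with OCLN, TJP1, EPCAM, HNF4A and CDX2, the HIF targets, and the 3 genes most like CLDN2, CLDN4 and CLDN15. The counts over both lists include 3 genes whose values are not reported here. VIL1 and KRT20 and the overlapping genes were named after their values were seen. The fit was first tested on simulated counts with 200 genes changed 4-fold in CoCl2 against control and 15417 genes tested. It recovered 191 of the 200 with 4 false calls. So few changed genes cannot probe the scaling on which the CoCl2 levels depend. Alternatives were each comparison on its own 6 libraries, DESeq2 1.42.0, scaling by upper-quartile or RLE factors or by library size only, no filter, at least 10 counts in every library, a replicate block, each replicate left out, the adjusted p alone and glmTreat. Precision follows depth: the SE of the log2 fold change with CoCl2 was 0.0443 for CLDN4 and 0.377 for CLDN6. The SE was computed as the size of the log2 fold change over the square root of edgeR's F statistic. That statistic shares information on spread between genes, so intervals reflect a moderated spread between these libraries and not that of 1 gene alone.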

Additional observations from a re-analysis of the deposited data

How the results depend on the processing

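The adjusted p alone and glmTreat change the rule for a call and are left out of the tally that follows. Of 483 values for the claudins under the other alternatives, 451 kept their direction and their side of the threshold, 17 newly passed it, 11 no longer did and 4 changed sign. The sign changes were all in CLDN6, at -0.085 (CoCl2 against control) and -0.15 (CoCl2 against OD) with library size alone, and, with OD against control, at -0.21 without control replicate 1 and -0.19 without OD replicate 1, in a range over left-out replicates of -0.21 to 0.30. CLDN12 lost its CoCl2 call with upper-quartile factors (0.92), library size alone (0.52), no filter (0.96), at least 10 counts (0.99), and without control replicates 1 or 3 or CoCl2 replicate 2 (0.97, 0.998 and 0.96). In this tally, newly called values were found for CLDN1, CLDN3 and CLDN23 alone, at up to -1.53. The causes of these changes were not tested.

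On the adjusted p alone, the number of claudins called went from 3 to 6 with OD and from 5 to 8 for CoCl2 against OD. Of all genes, 65.6% and 83.5% passed in these comparisons. Under glmTreat the claudins called with CoCl2 against control went from 6 to 4, and all genes called went from 6891 to 5390. With OD against control the claudins called went from 3 to 1, and all genes called went from 2113 to 965. For tight junction and regulator genes, 41 were tested. On the adjusted p alone, those called went from 17 to 37 with CoCl2 and from 4 to 33 with OD. For CoCl2 against OD they went from 9 to 37. The shares of all genes that passed were 83.2%, 65.6% and 83.5%. No clear pairing by replicate number was seen. Deviations of same-numbered libraries correlated at -0.005 to 0.038 over 9 pairs, and those of differently numbered libraries at -0.047 to 0.025 over 18. The check cannot tell a weak pairing from none. With the replicate block, CLDN23 in CoCl2 against OD reached -1.002 and became a call, and no other claudin call changed. Low counts limit what can be said of CLDN6 and GATA4.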
